A study of Homo sapiens with 15 samples.

Results

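The 42 genes described here encode proteins that build ribosomes in the nucleolus. They were taken as a list of names: the proteins of the box C/D and box H/ACA ribonucleoproteins, factors that process the small and the large ribosomal subunit, nucleolar chaperones and regulators, and components of RNA polymerase I. All 42 were found among the 69215 genes of the count tables, and 41 were among the 12769 genes with enough counts to be tested. RRN3 had 0 counts in all 15 libraries and was not tested. The list was not chosen from a fold change, but it was proposed with other results of these libraries known.

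Caco-2 is an established human cell line from a colorectal adenocarcinoma, and its monolayers take on features of enterocytes. Poly(A) RNA was sequenced from 5 libraries of cells exposed to polysorbate 80 (PS80) at 0.05% for 24 h, 5 of cells exposed to polysorbate 20 (PS20) at 0.05% for 24 h, and 5 of untreated control cells. Both agents are non-ionic food emulsifiers built on polyethoxylated sorbitan, with oleate as the main fatty acid of PS80 and laurate as that of PS20. The labels do not say that the replicates were separate cultures, so p-values measure the spread between these libraries, which may be technical.

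A ribosome starts as a long precursor RNA that RNA polymerase I transcribes from the ribosomal DNA, with UBTF on the gene body and RRN3 carrying the polymerase to the promoter. Small nucleolar RNAs then guide 2'-O-methylation by the box C/D complex and pseudouridylation by the box H/ACA complex, while large assemblies of helicases and scaffold proteins fold, cut and export the subunits. In growing epithelial and tumour cells this programme is a classical target of the transcription factor MYC, which binds the letters CACGTG, an E-box.

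Each value below is in CPM, the read count of a gene scaled to a common library size. A gene rose or fell when edgeR's quasi-likelihood test gave an adjusted p under 0.05 over all 12769 tested genes. The error given with a log2 fold change is its standard error. Total counts were 6769409 to 42271053 in PS80 libraries, 6749086 to 17251564 in PS20 libraries and 4183096 to 13616301 in control libraries. Apart from RRN3, NOP2 and PPAN, the members had between 87 and 65834 reads in a library. PPAN had 14 to 139 reads and NOP2 0 to 40, so both carry wide errors. PS80 replicates 1, 3, 4 and 5 were counted with another version of the counting program than the other 11 libraries, and in those 4 libraries that difference and PS80 cannot be told apart. The summed level of 8 epithelial markers was 9167 to 9691 CPM in PS80 libraries, 7421 to 8059 in PS20 libraries and 8779 to 10526 in control libraries, with KRT20 at 0 in all 15. The sum for 15 fibroblast, endothelial and blood markers was 153 to 202 CPM in PS80 libraries, 159.6 to 181 in PS20 libraries and 167 to 181 in control libraries. Among those markers, HBB was at 0 in all 15 libraries and PTPRC and DCN in 14. Others were present in every library. COL1A1 had 78.8 to 139.7 CPM in PS80 libraries, 90.7 to 119 in PS20 libraries and 87.2 to 110.2 in control libraries. CD14, COL3A1, PECAM1 and PDGFRB were lower but above 0 in all 15. Of the 7 epithelial markers with enough counts, 1 rose with PS80 and 3 rose and 3 fell with PS20 against control, and of the 7 others with enough counts, 2 rose and 1 fell with PS80 and 1 rose and 1 fell with PS20. Mitochondrial genes took 1.45% to 2.97% of counts in PS80 libraries, with replicates 1 and 2 at 2.16% and 2.97% and the other 3 at no more than 1.67%. Their share was 2.03% to 2.58% in PS20 libraries and 1.5% to 1.91% in control libraries, without overlap. The part of these markers and of the mitochondrial share in the results below was not tested.

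The promoters of the members come first. The members were listed by name and role, and whether that choice favoured genes already known as MYC targets was not tested. A window of 250 bases before to 50 bases after the start was available for 36 of the 42 members, from RefSeq on GRCh38.p14. CACGTG, which reads the same on both strands, was present in 14 of the 36 windows (38.9%). It was present in 2030 of 27305 windows of all genes (7.43%), in 997 of 9902 windows of tested genes (10.1%) and in 31 of 122 windows of other ribosome biogenesis genes (25.4%). Among members with a match, the first one lay within 50 bases of the start in 12 of 14 windows (85.7%), against 358 of 997 windows of tested genes (35.9%). The 14 stretches are shown so that the flanks of the motif can be compared. CACGTG is in capitals, and up to 10 bases are given on each side, on the strand of the gene:
BYSL, chr6:41921517-41921542, plus strand: cttcagtcccCACGTGcgatccttcc
EBNA1BP2, chr1:43172792-43172817, minus strand: tattgttggcCACGTGggatcgaaga
FBL, chr19:39846358-39846383, minus strand: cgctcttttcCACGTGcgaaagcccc
MYBBP1A, chr17:4555342-4555367, minus strand: ggccggagcaCACGTGtttcgtgttt
NAT10, chr11:34105604-34105629, plus strand: tgcgcttgcgCACGTGctgtctacca
NOC3L, chr10:94362905-94362930, minus strand: gggacttcggCACGTGtgtcattccc
NOP10, chr15:34343291-34343316, minus strand: agggacactcCACGTGttttagcctg
NOP14, chr4:2963376-2963401, minus strand: cgcggcccggCACGTGtcttagggta
NOP2, chr12:6568242-6568266, minus strand: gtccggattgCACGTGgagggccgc
PES1, chr22:30591882-30591907, minus strand: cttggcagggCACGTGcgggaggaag
RRP9, chr3:51941894-51941919, minus strand: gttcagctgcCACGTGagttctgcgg
UTP20, chr12:101280085-101280110, plus strand: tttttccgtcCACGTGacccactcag
UTP4, chr16:69132623-69132648, plus strand: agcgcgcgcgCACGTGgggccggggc
WDR43, chr2:28894660-28894685, plus strand: cacggacgaaCACGTGgctgcagcgg

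The match stood in the windows of 8 of 19 members that rose with PS80 against control (42.1%) and of 6 of 15 that were not called in that comparison (40%), so these shares were close to each other. BOP1, NOLC1, RRP1B and RRP12 rose with PS80 but had no window, so they are outside these shares. With PS20 against control, the match stood in 3 of 9 windows of members that rose (33.3%), in 2 of 5 of members that fell (40%) and in 9 of 21 of members not called (42.9%). RRP1B also rose with PS20 and is missing there too. A match is a string of letters and no measurement of binding. The whole windows of 3 members are shown because the results below turn on them: MYBBP1A, with a match, and NOP56, without one, rose with both agents, and UBTF, without one, fell with both:
MYBBP1A, chr17:4555335-4555634, minus strand: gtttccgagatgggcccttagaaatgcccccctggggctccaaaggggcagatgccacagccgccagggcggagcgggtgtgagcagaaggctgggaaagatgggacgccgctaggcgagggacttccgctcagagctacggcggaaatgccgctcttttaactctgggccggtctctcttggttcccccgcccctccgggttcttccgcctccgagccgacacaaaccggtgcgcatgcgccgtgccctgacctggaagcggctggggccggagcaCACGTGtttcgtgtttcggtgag
NOP56, chr20:2652382-2652681, plus strand: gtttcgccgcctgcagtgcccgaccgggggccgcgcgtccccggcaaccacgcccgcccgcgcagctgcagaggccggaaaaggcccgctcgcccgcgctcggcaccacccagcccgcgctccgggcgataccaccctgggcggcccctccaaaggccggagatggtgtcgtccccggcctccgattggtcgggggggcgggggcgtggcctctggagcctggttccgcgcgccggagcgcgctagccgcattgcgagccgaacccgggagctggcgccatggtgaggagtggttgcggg
UBTF, chr17:44220833-44221132, minus strand: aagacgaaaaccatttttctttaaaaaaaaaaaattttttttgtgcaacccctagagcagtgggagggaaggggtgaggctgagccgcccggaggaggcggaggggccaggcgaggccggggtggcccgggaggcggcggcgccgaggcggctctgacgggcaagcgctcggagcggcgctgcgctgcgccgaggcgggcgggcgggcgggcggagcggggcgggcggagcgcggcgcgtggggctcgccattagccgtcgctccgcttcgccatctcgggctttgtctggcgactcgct

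Per unit of length, in TPM (CPM-like levels scaled by the exon length listed in the files), NPM1 had the highest level of the members at 859.6 ± 53.8 TPM (SD over 15 libraries). NCL followed at 482 ± 54.5, FBL at 375 ± 56.7, NOLC1 at 283 ± 51.0 and DDX21 at 280.4 ± 51.2 TPM. NOLC1 and DDX21 were closer to each other than their spread, whereas NPM1 and NCL did not overlap in any library. At the low end stood DDX10 at 22.3 ± 2.0 TPM, PPAN at 5.38 ± 1.28 and NOP2 at 0.932 ± 0.466. The low values of some members cannot be read as low expression, because reads in exons shared with another gene were left unassigned. Of the exonic bases, 54.4% of NOP2 and 49.2% of PPAN lay in exons of another gene, and RRN3 shared 22 of 24 distinct exon lengths with a gene annotated on a scaffold.

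With PS80, 23 of 41 tested members rose against control (56.1%) and 1 fell (2.44%), where 33.4% of all tested genes were called, 17.4% up and 16.0% down. The median log2 fold change of the members was 0.23, against 0.00 over all tested genes, and 37 of 41 were above 0. PS80 replicate 2 was the only PS80 library counted with the same program version as the control libraries. Alone, and set against all 5 control libraries, it gave a median of 0.09, with no spread of its own. Against control replicate 2 its mean member level was 0.21 higher in log2, with 33 of 41 members above. The other same-numbered libraries gave 0.16 to 0.45. The 0.21 depends on that partner, because control replicate 2 was low. As a mean log2 deviation of the members, it stood at -0.21 and PS80 replicate 2 at 0.00. Control replicate 1 stood at -0.25, and control replicates 3, 4 and 5 at -0.01, -0.04 and -0.02. With 1 such PS80 library, how much of the 56.1% came with the program version could not be tested. With PS20, 10 members rose against control (24.4%) and 5 fell (12.2%), where 48.3% of all tested genes were called, 24.4% up and 23.9% down. Their median was 0.06, against 0.01 over all tested genes, and the share that rose with PS20 equalled that of all tested genes in this fit. With the replicate number as a block, a pairing that the data did not settle for PS20, 17 members rose (41.5%), where 27.4% of all tested genes did. In the direct comparison of PS80 with PS20, 20 members were higher with PS80 (48.8%) and 0 were lower, where 35.5% of all tested genes were called, 18.2% higher and 17.3% lower. Of the 21 members not called there, 7 had a log2 fold change below 0, and none of the 41 was below -0.06. With PS80 replicate 2 alone, the median against PS20 was 0.06, where all 5 PS80 libraries gave 0.17. Against PS20 replicate 2 its mean member level was 0.12 higher, and the other same-numbered libraries gave 0.14 to 0.25. PS20 replicate 2 was the lowest of its group, with a mean deviation of -0.12, against -0.05 to 0.01 in the other PS20 libraries. Both agents were set against the same 5 control libraries, so the comparisons with control share that error. In bulk RNA, fewer cells of a type and less RNA per cell cannot be told apart.

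**Figure D1:**
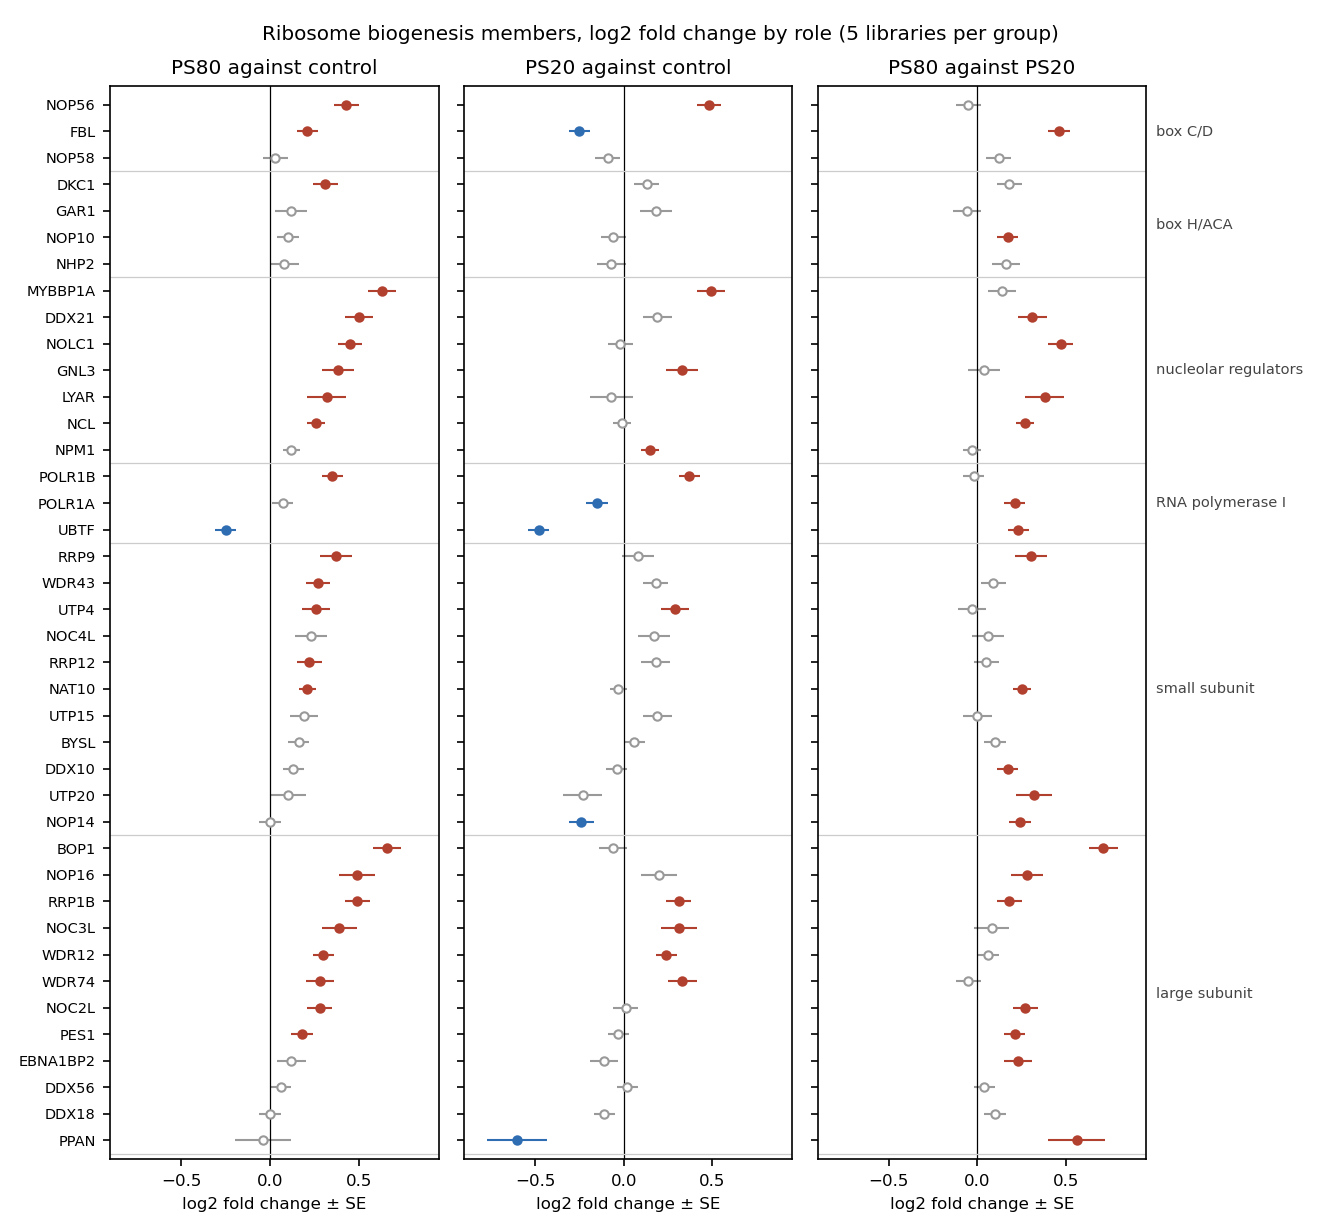
Log2 fold change ± SE of 40 members in the 3 comparisons, grouped by role; filled red points rose, filled blue points fell and open points were not called at adjusted p under 0.05. NOP2, whose SE was 0.38 to 0.44, and RRN3, which was not tested, are left out. Most red points stand in the panels of PS80 against control and PS80 against PS20, and UBTF is blue in both comparisons with control.

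The groups did not overlap for 16 members with PS80 above control (10.3% of all tested genes did so) and for 1 below (9.30% of all). For PS20 against control the counts were 8 above (16.2% of all) and 3 below (16.3% of all). For PS80 against PS20 they were 11 above (11.7% of all) and 0 below (11.0% of all). In the fit without the block, the members followed several patterns across the 3 tests. How common each pattern was over all tested genes was not counted, so the counts below only describe the members. In 10 members (BOP1, DDX21, LYAR, NAT10, NCL, NOC2L, NOLC1, NOP16, PES1 and RRP9) PS80 was above both PS20 and control while PS20 against control was not called. In 8 others (GNL3, MYBBP1A, NOC3L, NOP56, POLR1B, UTP4, WDR12 and WDR74) both agents were above control and the direct comparison was not called. No test called 9 members: BYSL, DDX18, DDX56, GAR1, NHP2, NOC4L, NOP2, NOP58 and UTP15.

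The box C/D complex methylates ribosomal RNA and holds the paired scaffold proteins NOP56 and NOP58 and the methyltransferase FBL. Of these 3 proteins, 2 rose with PS80 against control, and with PS20 1 rose and 1 fell. Over all tested genes, 17.4% rose and 16.0% fell with PS80, and 24.4% rose and 23.9% fell with PS20. The same shares apply to the counts of each role class below. NOP56 (ENSG00000101361.17, chr20:2652593-2658393, plus strand, GRCh38) had 138, 128, 139.8, 136 and 152 CPM in PS80 libraries, 153, 123, 151, 148 and 145 in PS20 libraries, and 99.7, 87.6, 102, 111 and 115 in control libraries. Every library of either agent was above every control library. Its log2 fold change was 0.43 ± 0.07 for PS80 against control (adjusted p = 0.000142) and 0.48 ± 0.07 for PS20 against control (adjusted p = 1.51e-05). Between PS80 and PS20 it was -0.05, with an interval at the 95% level of -0.20 to 0.09 (adjusted p = 0.588).

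FBL (ENSG00000105202.9, chr19:39834458-39846379, minus strand), the methyltransferase of the same complex, was the only member that rose with one agent and fell with the other against control. It had 235, 213, 231, 208 and 224 CPM in PS80 libraries, 163, 167, 154, 149 and 173 in PS20 libraries, and 169, 183, 203, 195 and 207 in control libraries. All PS80 values were above all others, while PS20 and control overlapped. The log2 fold change was 0.21 ± 0.06 for PS80 against control (adjusted p = 0.00782), -0.25 ± 0.06 for PS20 against control (adjusted p = 0.00157) and 0.46 ± 0.06 for PS80 against PS20 (adjusted p = 4.12e-06). NOP58 averaged 107 ± 11.8 CPM with PS80, 98.1 ± 5.98 with PS20 and 104 ± 3.73 in control cells (SD, n = 5 each). It passed no test in the fit without the block. With the block it was 0.12 higher with PS80 than with PS20 (adjusted p = 0.0495). Within this complex, the fold changes with PS20 against control were 0.48 for NOP56, -0.09 for NOP58 and -0.25 for FBL. The rise of FBL with PS80 was lost in replicates 3 to 5 alone (0.13, adjusted p = 0.0582) and with PS80 replicate 2 alone (0.15, adjusted p = 0.307), and its fall with PS20 in replicates 1 and 2 alone (-0.10, adjusted p = 0.539). FBL also shares all 28 of its distinct exon lengths with a scaffold gene that had 0 counts, so part of its reads may be missing in every library. The same holds for NOC4L, a member of another class, which shares all 20 of its distinct exon lengths with such a gene.

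**Figure D2:**
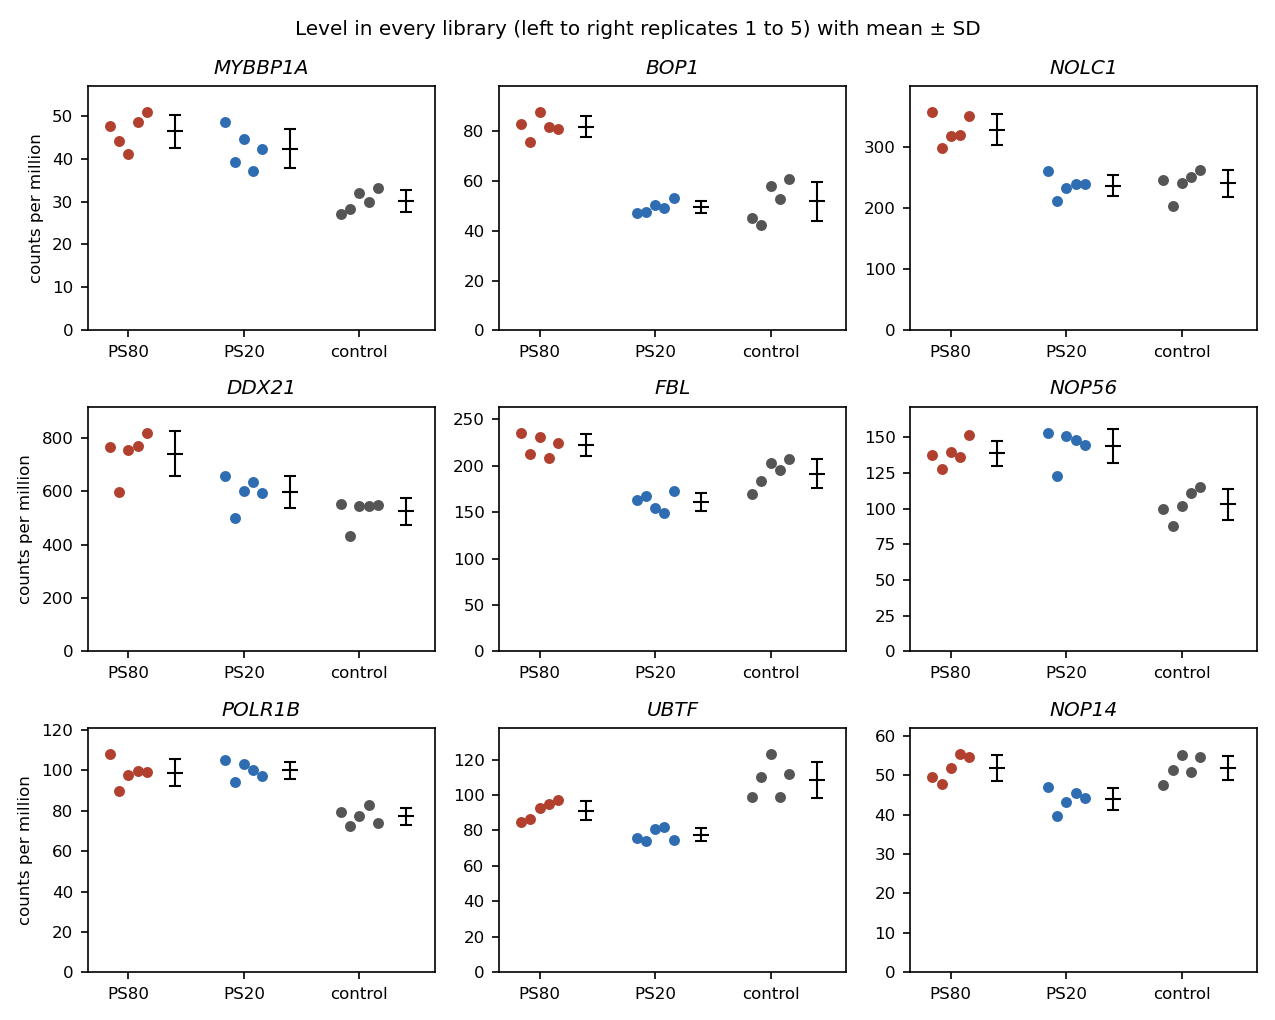
CPM of 9 members in every library of PS80, PS20 and control cells, with the mean and SD beside the 5 points of a group; every axis starts at 0. MYBBP1A, NOP56 and POLR1B are higher with both agents, BOP1 and NOLC1 stand apart with PS80, and UBTF is lower with both. FBL is highest with PS80 by a narrow margin, with 208 CPM in the lowest PS80 library and 207 in the highest control library.

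The box H/ACA complex turns uridine into pseudouridine. DKC1, its catalytic subunit, was the only 1 of its 4 members that rose with PS80 against control, and 0 of 4 rose or fell with PS20. DKC1 averaged 134 ± 13.9 CPM with PS80, 118 ± 9.30 with PS20 and 108 ± 6.10 in control cells, a log2 fold change of 0.31 ± 0.07 for PS80 against control (adjusted p = 0.00206). GAR1 had 30, 29.8, 35, 32.0 and 35.7 CPM in PS80 libraries, 32.2, 30.4, 36.0, 34.0 and 36.1 in PS20 libraries, and 24.0, 28.0, 35.3, 32.6 and 29.1 in control libraries. Its 3 groups overlapped, with fold changes of 0.12 for PS80 against control (adjusted p = 0.313) and 0.18 for PS20 against control (adjusted p = 0.0955). With the replicate number as a block, GAR1 (adjusted p = 0.0429) and DKC1 (adjusted p = 0.0241) also rose with PS20. In that fit DKC1 was higher with PS80 than with PS20 (adjusted p = 0.00344). NOP10 averaged 61.9 ± 4.80 CPM with PS80 and 54.8 ± 3.51 with PS20 and was higher with PS80 (0.17 ± 0.06, adjusted p = 0.0468). That call was lost without any 1 of 6 libraries (PS80 replicate 1 or 3, PS20 replicate 1, 2, 3 or 5), with adjusted p between 0.0520 and 0.128.

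Of 7 nucleolar chaperones and regulators, 6 rose with PS80 against control (85.7%, where 17.4% of all tested genes did), with a median of 0.38. With PS20, 3 rose (42.9%, where 24.4% of all tested genes did), with a median of 0.15. Between the agents, 4 were higher with PS80 (57.1%, where 18.2% of all tested genes were), with a median of 0.27. MYBBP1A (ENSG00000132382.15, chr17:4538897-4555386, minus strand), a nucleolar protein that represses several transcription factors and works in precursor processing, had the highest fold change of any member with PS20. It had 47.6, 44.1, 41, 48.4 and 50.8 CPM in PS80 libraries, 48.5, 39.2, 44.5, 37.1 and 42.2 in PS20 libraries, and 27.0, 28.3, 32.0, 29.9 and 33.2 in control libraries. The control libraries were the 5 lowest. The log2 fold change was 0.63 ± 0.08 for PS80 (adjusted p = 7.08e-06) and 0.49 ± 0.08 for PS20 (adjusted p = 4.60e-05), and 0.14 between the agents, with an interval of -0.02 to 0.30.

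NOLC1 (ENSG00000166197.17, chr10:102152176-102163871, plus strand), a chaperone of small nucleolar ribonucleoproteins that links the nucleolus to Cajal bodies, differed between the agents. It had 356, 297, 317, 318 and 350.5 CPM in PS80 libraries, 259.8, 211, 232, 239 and 239 in PS20 libraries, and 245, 203, 240.4, 250.5 and 261 in control libraries. The PS80 libraries were the 5 highest, and PS20 and control overlapped. The fold change was 0.45 ± 0.07 for PS80 against control (adjusted p = 3.84e-05), -0.02 for PS20 against control (interval -0.16 to 0.12) and 0.47 ± 0.07 for PS80 against PS20 (adjusted p = 1.48e-05).

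DDX21, an RNA helicase active in both RNA polymerase I transcription and precursor processing, had 765, 598, 754, 769 and 818 CPM in PS80 libraries, 656, 501, 600.1, 635 and 595 in PS20 libraries, and 553, 433, 546, 546 and 547 in control libraries. Replicate 2 was the lowest in each group, and all PS80 values were above all control values. The fold change was 0.50 ± 0.08 for PS80 against control (adjusted p = 0.000117), 0.19 ± 0.08 for PS20 against control (adjusted p = 0.0652) and 0.31 ± 0.08 between the agents (adjusted p = 0.00563). With PS80 replicate 2 alone it was 0.19 against control (adjusted p = 0.288) and 0.01 against PS20 (adjusted p = 0.970). With the replicate number as a block, DDX21 also rose with PS20 against control (0.19, adjusted p = 0.000431). NCL and NPM1 are the most abundant members. NCL, the RNA-binding protein nucleolin, averaged 1158 ± 69.2 CPM with PS80, 958 ± 62.1 with PS20 and 966 ± 50.3 in control cells, 0.26 ± 0.05 above control with PS80 (adjusted p = 0.000898). NPM1, the histone chaperone nucleophosmin, averaged 1739 ± 132 CPM with PS80, 1777 ± 102 with PS20 and 1605 ± 17.6 in control cells. It was the only member that rose with PS20 against control and was not called with PS80 (0.15 ± 0.05, adjusted p = 0.0238), a call lost without PS20 replicate 2 (adjusted p = 0.0765). GNL3, the GTPase nucleostemin, rose with both agents, by 0.38 ± 0.09 with PS80 (adjusted p = 0.00274) and 0.33 ± 0.09 with PS20 (adjusted p = 0.00438). LYAR averaged 30.6 ± 3.94 CPM with PS80, 23.1 ± 1.64 with PS20 and 24.5 ± 4.57 in control cells. Its call for PS80 against control (adjusted p = 0.0306) was lost without any 1 of 5 libraries (PS80 replicate 1, 3 or 5, control replicate 1 or 2), with adjusted p between 0.0672 and 0.110.

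The RNA polymerase I genes moved in both directions. POLR1B, the second-largest subunit of the enzyme, had 108, 89.6, 97.9, 99.8 and 99.3 CPM in PS80 libraries, 105, 94.2, 103, 100.3 and 97.2 in PS20 libraries, and 79.3, 72.4, 77.4, 83.0 and 74.1 in control libraries. No library of either agent overlapped with control. It rose by 0.35 ± 0.06 with PS80 (adjusted p = 0.000127) and by 0.37 ± 0.06 with PS20 (adjusted p = 3.14e-05), and the agents differed by -0.02 (interval -0.14 to 0.10). POLR1A, the largest subunit, averaged 216 ± 16.7 CPM with PS80, 186 ± 12.3 with PS20 and 206 ± 5.99 in control cells. It fell by 0.15 with PS20 (adjusted p = 0.0388) and was 0.21 ± 0.06 higher with PS80 than with PS20 (adjusted p = 0.00480). The fall with PS20 was lost without any 1 of 6 libraries (PS20 replicate 2, 4 or 5, control replicate 3, 4 or 5), with adjusted p between 0.0550 and 0.122.

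UBTF (ENSG00000108312.16, chr17:44205033-44221626, minus strand), the factor that keeps ribosomal DNA open for transcription, was the only member that fell with both agents. It had 84.8, 86.3, 92.4, 95.2 and 97.2 CPM in PS80 libraries, 76.0, 73.9, 80.6, 82.1 and 74.8 in PS20 libraries, and 99.0, 110.0, 123, 98.9 and 112 in control libraries. The 3 groups did not overlap, with PS20 lowest, PS80 between and control highest. The fold change was -0.25 ± 0.06 for PS80 against control (adjusted p = 0.00508), -0.48 ± 0.06 for PS20 against control (adjusted p = 3.67e-06) and 0.23 ± 0.06 for PS80 against PS20 (adjusted p = 0.00709).

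Of 11 factors of small-subunit processing, 5 rose with PS80 against control (RRP9, WDR43, UTP4, RRP12 and NAT10), with fold changes of 0.21 to 0.37. Those 5 were 45.5% of the class, where 17.4% of all tested genes rose. With PS20 against control, UTP4 rose and NOP14 fell (9.09% each, where 24.4% of all tested genes rose and 23.9% fell). Between the agents, 5 were higher with PS80 (45.5%, where 18.2% of all tested genes were). NAT10, the enzyme that acetylates cytidine in small-subunit RNA, averaged 143 ± 3.97 CPM with PS80, 121 ± 4.86 with PS20 and 124 ± 4.23 in control cells. It rose by 0.21 ± 0.05 with PS80 against control (adjusted p = 0.00161) and was 0.25 ± 0.05 higher with PS80 than with PS20 (adjusted p = 0.000352). RRP9, a protein that binds the U3 small nucleolar RNA, averaged 42.4 ± 3.80 CPM with PS80, 34.2 ± 3.74 with PS20 and 32.6 ± 4.08 in control cells, with 0.37 ± 0.09 for PS80 against control (adjusted p = 0.00292). UTP4, a subunit of the early t-UTP complex, averaged 40.8 ± 4.81 CPM with PS80, 41.6 ± 1.95 with PS20 and 34.1 ± 2.48 in control cells. Its rise with PS80 (0.26 ± 0.08, adjusted p = 0.0158) was lost without PS80 replicate 5 (adjusted p = 0.0718), while that with PS20 was 0.29 ± 0.08 (adjusted p = 0.00564).

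NOP14, a scaffold of the small-subunit processome, had 49.6, 47.7, 51.9, 55.3 and 54.7 CPM in PS80 libraries, 46.9, 39.7, 43.3, 45.5 and 44.3 in PS20 libraries, and 47.6, 51.2, 55.2, 50.8 and 54.5 in control libraries. The PS20 values were below all others, and PS80 and control overlapped. It fell by 0.24 with PS20 against control (SE 0.07, adjusted p = 0.00486) and was 0.24 ± 0.06 higher with PS80 than with PS20 (adjusted p = 0.00598). Of its exonic bases, 20.7% lie in exons of NOP14-AS1 on the other strand, and the counts do not separate strands. UTP20, a large scaffold of the same assembly, averaged 95 ± 14.3 CPM with PS80, 75.5 ± 9.92 with PS20 and 88.9 ± 9.12 in control cells, and was higher with PS80 than with PS20 (0.32 ± 0.10, adjusted p = 0.0176). DDX10, a helicase, averaged 103 ± 6.13 CPM with PS80 and 91.4 ± 7.93 with PS20 (0.17 ± 0.06, adjusted p = 0.0356). The UTP20 call was lost without PS80 replicate 4 (adjusted p = 0.0566) or PS20 replicate 2 (adjusted p = 0.0591), and the DDX10 call without any 1 of 6 libraries (adjusted p between 0.0511 and 0.112). RRP12, WDR43, UTP15, NOC4L and BYSL had fold changes of 0.16 to 0.27 with PS80 against control, of which RRP12 (adjusted p = 0.0258) and WDR43 (adjusted p = 0.00838) passed. The RRP12 call was lost without PS80 replicate 4 or 5 or control replicate 1 or 2, with adjusted p between 0.0595 and 0.0884. When replicate numbers entered the fit as a block, BYSL (adjusted p = 0.0365), DDX10 (0.0371), NOC4L (0.00332) and UTP15 (0.00876) also passed for PS80 against control. That made 27 members that rose (65.9%, where 20.9% of all tested genes rose in that fit).

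Of 13 factors of large-subunit processing, 8 rose with PS80 against control (61.5%, where 17.4% of all tested genes did), with a median of 0.28. With PS20, 4 rose (30.8%, where 24.4% of all tested genes did) and 1 fell (7.69%, where 23.9% did), with a median of 0.02. Between the agents, 7 were higher with PS80 (53.8%, where 18.2% of all tested genes were). BOP1 (ENSG00000261236.8, chr8:144262045-144291438, minus strand), which with PES1 and WDR12 forms the complex that matures large-subunit RNA, had the highest fold change with PS80 of all members. It had 82.8, 75.8, 87.6, 81.5 and 80.7 CPM in PS80 libraries, 47.3, 47.7, 50.5, 49.3 and 53.1 in PS20 libraries, and 45.2, 42.5, 57.8, 52.7 and 60.9 in control libraries. All PS80 libraries were above all others, and PS20 lay within the range of control. The fold change was 0.66 ± 0.08 for PS80 against control (adjusted p = 3.96e-06), -0.06 for PS20 against control (interval -0.23 to 0.11) and 0.71 ± 0.08 for PS80 against PS20 (adjusted p = 7.99e-07, interval 0.55 to 0.88). Of the partners of BOP1, PES1 was 0.18 ± 0.06 above control with PS80 (adjusted p = 0.0329), and at -0.03 with PS20. The PES1 call was lost without PS80 replicate 3 or 5 or control replicate 1, 2 or 5, with adjusted p between 0.0507 and 0.0965. WDR12 averaged 105 ± 7.45 CPM with PS80, 101 ± 2.37 with PS20 and 85.7 ± 4.78 in control cells, and rose by 0.30 ± 0.06 with PS80 (adjusted p = 0.000536) and by 0.24 ± 0.06 with PS20 (adjusted p = 0.00200).

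RRP1B, a nucleolar protein that also regulates transcription, had 171, 156, 153, 159 and 170.0 CPM in PS80 libraries, 160.4, 129, 146, 136 and 141 in PS20 libraries, and 117, 97.3, 122, 119 and 123 in control libraries. All values of either agent were above all control values, with PS80 mostly above PS20. It rose by 0.49 ± 0.07 with PS80 against control (adjusted p = 1.37e-05) and by 0.31 ± 0.07 with PS20 against control (adjusted p = 0.000742), and PS80 was 0.18 ± 0.07 higher than PS20 (adjusted p = 0.0323). That last call was lost without any 1 of 5 libraries (PS80 replicate 1 or 5, PS20 replicate 2, 4 or 5), with adjusted p between 0.0604 and 0.0955. WDR74, a partner of the remodelling ATPase NVL, had 32.9, 30, 30.6, 32.0 and 34.9 CPM in PS80 libraries, 30.8, 33.9, 31.4, 33.9 and 37.0 in PS20 libraries, and 22.7, 26.1, 28.2, 25.6 and 29.6 in control libraries. Both agents were above control in every library, by 0.28 ± 0.08 with PS80 (adjusted p = 0.00756) and 0.33 ± 0.08 with PS20 (adjusted p = 0.00130), and overlapped each other (-0.05, interval -0.21 to 0.10).

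DDX18, a helicase of the large-subunit pathway, had 226, 192, 228, 232 and 250.3 CPM in PS80 libraries, 207, 188, 204, 221 and 228 in PS20 libraries, and 240.3, 219, 219.7, 233 and 219 in control libraries. The groups overlapped, with fold changes of -0.00 for PS80 (interval -0.14 to 0.13) and -0.11 for PS20 (interval -0.24 to 0.02) against control. PPAN, a factor of large-subunit assembly, had 4.56, 3.36, 4.32, 4.55 and 4.21 CPM in PS80 libraries, 2.66, 2.97, 2.71, 2.57 and 3.11 in PS20 libraries, and 3.0, 5.05, 3.82, 4.69 and 3.96 in control libraries. PS20 was below PS80 in every library and overlapped with control at the lowest control value. It fell by 0.60 with PS20 against control (SE 0.17, adjusted p = 0.00684), the lowest fold change of the members, and was 0.56 ± 0.16 higher with PS80 than with PS20 (adjusted p = 0.0113). PPAN overlaps the read-through gene PPAN-P2RY11, so its counts are uncertain. Of the other members, NOP16 averaged 30.2 ± 2.96 CPM with PS80, 24.9 ± 3.02 with PS20 and 21.7 ± 3.0 in control cells, 0.49 ± 0.10 above control with PS80 (adjusted p = 0.000690). NOC3L, whose yeast counterpart helps the pre-ribosome move out of the nucleolus, was at 0.39 ± 0.10 with PS80 (adjusted p = 0.00456) and 0.31 ± 0.10 with PS20 (adjusted p = 0.0144) against control, the second lost without control replicate 2 (adjusted p = 0.0501). NOC2L, its partner, averaged 125 ± 5.11 CPM with PS80, 103 ± 9.25 with PS20 and 103 ± 10.8 in control cells, and rose by 0.28 ± 0.07 with PS80 (adjusted p = 0.00426). EBNA1BP2 was 0.23 ± 0.08 higher with PS80 than with PS20 (adjusted p = 0.0337) and DDX56, a helicase, was at 0.06 with PS80 and 0.02 with PS20 against control. The EBNA1BP2 call was lost without any 1 of 6 libraries, with adjusted p between 0.0588 and 0.0903, and that of NOP16 between the agents (0.28 ± 0.09, adjusted p = 0.0226) without any 1 of 4, with adjusted p between 0.0595 and 0.0704.

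The mean level of the members varied within each group. The mean log2 deviation of the 41 members from their 15-library mean was 0.20, 0.00, 0.16, 0.13 and 0.23 in PS80 replicates 1 to 5, -0.05, -0.12, -0.02, -0.01 and 0.01 in PS20, and -0.25, -0.21, -0.01, -0.04 and -0.02 in control. PS80 replicate 2 stood lowest of its group, near PS20 replicate 5, and control replicates 1 and 2 stood lower than control replicates 3 to 5. Between libraries of the same number, PS80 minus control was 0.45, 0.21, 0.17, 0.16 and 0.25, and PS20 minus control was 0.20, 0.08, -0.01, 0.03 and 0.03. PS80 was above control for 33 to 38 of 41 members in each of the 5 numbers, and PS20 for 22 to 31. The deepest library, PS80 replicate 2, was the only one of its group counted like the rest. Alone, it gave a members' median of 0.09 against control and 0.06 against PS20, where all 5 PS80 libraries gave 0.23 and 0.17. Over all tested genes its medians were -0.01 and -0.01. Its fold changes against control included 0.55 for BOP1, 0.55 for MYBBP1A, 0.44 for RRP1B, 0.43 for NOP16 and 0.31 for NOLC1. Others were smaller, such as 0.07 for DKC1, 0.04 for UTP4 and 0.02 for LYAR. Against PS20 they included 0.62 for BOP1, 0.41 for FBL and 0.34 for NOLC1, and -0.02 for EBNA1BP2 and -0.05 for UTP20. Within replicates 1 and 2, 14 members rose with PS80 against control (34.1%), where 8.55% of all tested genes did. Within replicates 3 to 5, 23 members did (56.1%), where 15.7% of all tested genes did.

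**Figure D3:**
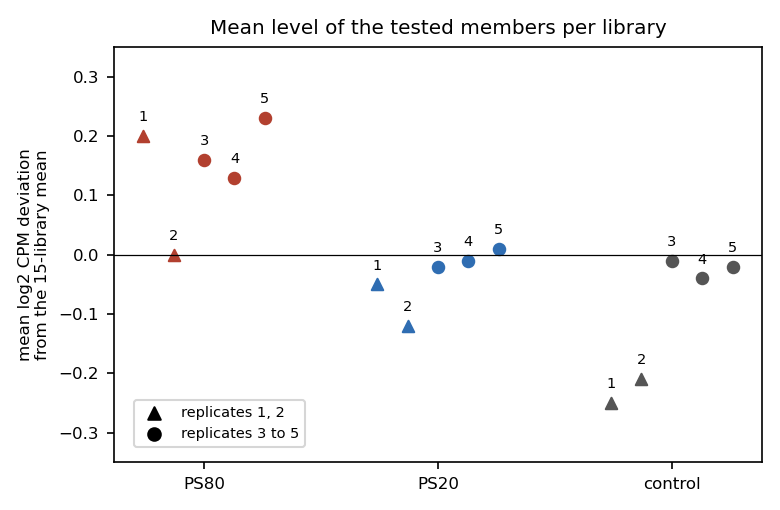
Mean log2 CPM deviation of the 41 tested members from their mean over 15 libraries, for each library of PS80, PS20 and control cells; triangles are replicates 1 and 2 and circles replicates 3 to 5. PS80 replicate 2 is at 0.00 and the other PS80 libraries at 0.13 to 0.23; control replicates 1 and 2 are at -0.25 and -0.21.

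Of 141 further genes of ribosome biogenesis, listed from textbook knowledge of the pathway, 133 were tested. With PS80 against control, 35 rose (26.3%) and 9 fell (6.77%), where 17.4% of all tested genes rose and 16.0% fell. The median was 0.10. With PS20 against control, 27 rose (20.3%) and 18 fell (13.5%), where 24.4% of all tested genes rose and 23.9% fell. The median was 0.03. Between PS80 and PS20, 34 were higher with PS80 (25.6%) and 9 lower (6.77%), where 18.2% and 17.3% of all tested genes were. The same shares over all tested genes apply to the counts of each list below. Among 42 tested small-subunit factors, 10 rose and 4 fell with PS80, and 9 rose and 3 fell with PS20, all against control. TBL3, a small-subunit processome protein, was at 0.59 with PS80 and 0.37 with PS20, though 30% of its exonic bases lie in another gene, and NOL6 was at 0.50 with PS80 and 0.40 with PS20. DHX37, a helicase, fell by 0.44 with PS20 and was at 0.11 with PS80 (adjusted p = 0.211). Among 47 large-subunit factors, 13 rose and 4 fell with PS80, and 12 rose and 10 fell with PS20; RRS1 was at 0.45 with PS80 and 0.60 with PS20. Among 11 genes of small nucleolar ribonucleoprotein assembly, 5 rose and 1 fell with PS80, and 0 rose and 1 fell with PS20. TCOF1, the partner of NOLC1 at the polymerase, averaged 336 ± 29.6 CPM with PS80, 229 ± 26.5 with PS20 and 241 ± 20.8 in control cells, 0.48 ± 0.08 above control with PS80 (adjusted p = 6.49e-05) and 0.56 ± 0.07 above PS20 (adjusted p = 8.54e-06). TAF1D, a factor of RNA polymerase I initiation, was higher with PS20 than with PS80, with 114 ± 10.3 CPM with PS80, 177 ± 15 with PS20 and 102 ± 7.21 in control cells, and rose by 0.80 ± 0.07 with PS20 (adjusted p = 1.07e-08). Of 10 further RNA polymerase I genes, 1 rose and 0 fell with PS80, and 2 rose and 1 fell with PS20. Of 13 RNA exosome genes, 3 rose and 0 fell with PS80, and 2 rose and 2 fell with PS20. Of 10 genes of RNase MRP and P, 3 rose and 0 fell with PS80, and 2 rose and 1 fell with PS20. Of 14 RNA polymerase III genes, 3 rose and 0 fell with PS80, and 5 rose and 1 fell with PS20. POLR3G, the alternative subunit of that polymerase, averaged 10.3 ± 1.40 CPM with PS80, 9.71 ± 1.18 with PS20 and 5.05 ± 0.732 in control cells, with fold changes against control of 1.01 ± 0.14 with PS80 (adjusted p = 1.37e-05) and 0.95 ± 0.14 with PS20 (adjusted p = 1.09e-05).

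**Figure D4:**
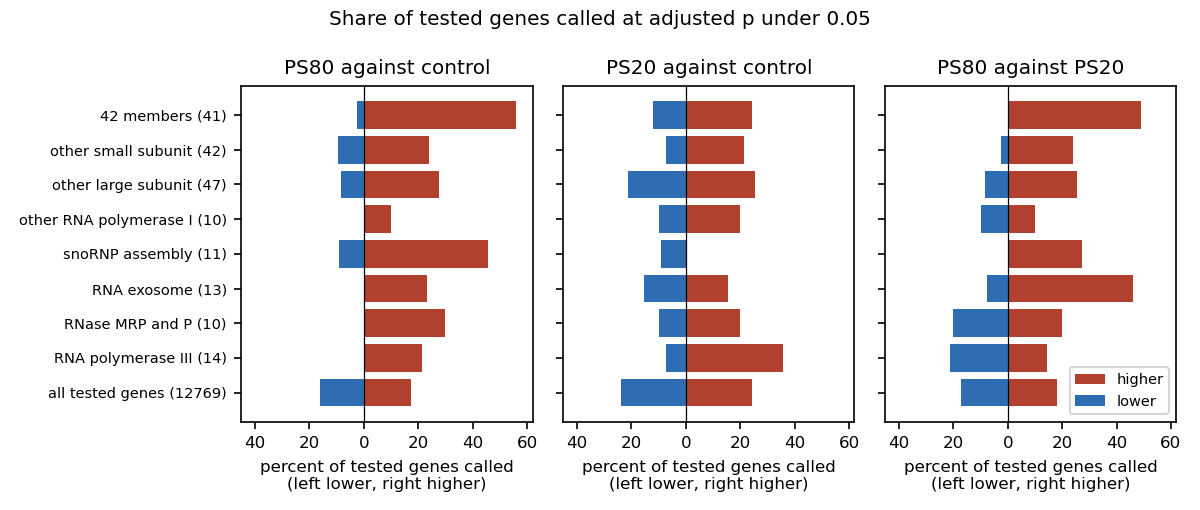
Percent of tested genes that rose (red, to the right) or fell (blue, to the left) in each comparison, for the members, the other ribosome biogenesis lists and all tested genes; the number tested is in brackets. The members' red bar reaches 56.1% for PS80 against control and 48.8% for PS80 against PS20, and 24.4% for PS20 against control, the same as all tested genes.

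MYC, the transcription factor named above, had 154, 144, 106, 112 and 117 CPM in PS80 libraries, 136, 109.6, 104, 118 and 113 in PS20 libraries, and 69.0, 56.2, 41.8, 45.9 and 44.8 in control libraries. Every library of either agent was above every control library. It rose by 1.31 ± 0.12 with PS80 (adjusted p = 1.85e-07) and by 1.18 ± 0.12 with PS20 (adjusted p = 1.10e-07), and the agents differed by 0.13 (interval -0.10 to 0.37, adjusted p = 0.377). MXD4, which competes with MYC for its partner MAX, averaged 15 ± 2.58 CPM with PS80, 23.8 ± 2.27 with PS20 and 29.8 ± 5.96 in control cells, and fell by 0.96 with PS80 against control (adjusted p = 1.13e-05). The fall of MXD4 with PS20 (-0.31, adjusted p = 0.0457) was lost without any 1 of 7 libraries, with adjusted p between 0.0521 and 0.217. Within a list of 10 genes of the MYC network, 3 rose and 3 fell with PS80, and 4 rose and 2 fell with PS20, against control. Over all tested genes, 17.4% rose and 16.0% fell with PS80, and 24.4% rose and 23.9% fell with PS20.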

How the data were processed

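RNA was measured in 15 Caco-2 libraries, 5 per group, prepared from poly(A) RNA according to the protocols in the labels. The deposited tables hold raw read counts per gene, which the authors made with featureCounts, per the file headers. Version 2.0.0 was used for 11 libraries and version 2.0.3 for PS80 replicates 1, 3, 4 and 5. The file headers name the GENCODE 42 annotation with patches and scaffolds and a mapping quality minimum of 10, and show no strand option. Alignment with STAR 2.7.9a to GRCh38, trimming with cutadapt and testing with DESeq2 1.32.0 are per the submitters' processing notes. Symbols were matched for 62625 of 69215 genes (90.48%), and the 6519 genes on scaffolds had 0 counts.

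Counts were analysed with edgeR 4.0.16 in R 4.3.3. Genes passing filterByExpr (minimum count 10, minimum total 15) were scaled by TMM and tested by the quasi-likelihood test with 1 term per group over all 15 libraries, with Benjamini-Hochberg adjustment over 12769 genes and a threshold of 0.05. Values are CPM with SD over 5 libraries, and TPM only for levels between genes. The alternatives included DESeq2 1.42.0. Depth was 4183096 to 42271053 counts per library. No 2 libraries of a group agreed within sampling noise.

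Values of all 15 libraries are given for the member of each role class with the smallest p in PS20 against control and for the 3 highest and 3 lowest fold changes of each comparison. Of each other list at most 3 genes with the smallest p are named, plus MYC, whose 15 values were added after they were seen. The members and lists were chosen with earlier results of these data known.

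Replicate numbers in the titles are shared between groups. Across genes, same-numbered libraries of PS80 and control deviated together from their group means in all 5 pairs (r from 0.102 to 0.304), so those numbers may mark pairs. The reported calls come from the fit without the block. The members whose calls the block added are named in the results or at the end. For PS20 and control (r from -0.0264 to 0.248) and PS80 and PS20 (r from 0.0741 to 0.290), 3 of 5 pairs were over 0.1, and the numbers were not taken as pairs.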

Additional observations from a re-analysis of the deposited data

Results flagged for a closer look

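In 8 of 123 sets of 5 libraries (a tested member in 1 group), 1 library stood far from the others in CPM by Dixon's test. Chance flags about 1 in 20 such sets. NOP56 had 123 CPM in PS20 replicate 2, with 145 in the next lowest PS20 library. Control replicate 2 was low for 3 members: NCL at 879 CPM (next 969), DDX21 at 433 (next 546) and RRP1B at 97.3 (next 117). PS20 replicate 1 was low for NOC4L at 33.1 CPM (next 39.0) and high for WDR12 at 105 (next 100.5). PPAN had 3.36 CPM in PS80 replicate 2, with 4.21 in the next lowest PS80 library. NOP2 had 0 CPM in control replicate 1, with 0.948 in the next lowest control library. The calls of NOP56, NCL and DDX21 against control, and of RRP1B and WDR12 against control with either agent, were kept without any single library. In replicates 1 and 2 alone, WDR12 was not called with PS80 (adjusted p = 0.0925) or PS20 (adjusted p = 0.102). With PS80 replicate 2 alone, fold changes against control were 0.32 for NOP56, 0.14 for NCL, 0.19 for DDX21 and 0.16 for WDR12.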

How the results depend on the processing

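Against control, 23 members rose and 1 fell with PS80, and 10 rose and 5 fell with PS20; 20 were higher and 0 lower with PS80 than with PS20. These counts were also given by DESeq2 and by RLE normalization. Without a filter on low counts they were 24 and 1, 10 and 5, and 19 and 0. Leaving out 1 library at a time gave 19 to 25 higher and 1 lower for PS80 against control, 9 to 13 higher and 4 to 6 lower for PS20 against control, and 14 to 23 higher and 0 lower for PS80 against PS20. Over all genes those ranges were 3566 to 4167, 5608 to 6065 and 3840 to 4420 calls. Of the members' calls, 20 of 24, 12 of 15 and 14 of 20 were kept without any single library, and 5, 6 and 3 were kept in every alternative. With the replicate number as a block, 17 members rose with PS20 against control (41.5%, against 27.4% of all genes) and 6 fell (14.6%, against 26.4%). With PS80 against control, 27 rose (65.9%, against 20.9% of all genes) and 1 fell (2.44%, against 19.5%). Between the agents, 22 were higher with PS80 (53.7%, against 21.8% of all genes). The block took no call away. With PS20 against control it added UTP20 to the falls and DDX21, DKC1, GAR1, NOC4L, RRP12, UTP15 and WDR43 to the rises. Between PS80 and PS20 it added DKC1 and NOP58 as higher with PS80. The own number gave the best correlation in 4 of 5 pairs of PS20 and control. It did so in 3 of 5 pairs of PS80 and control and in 3 of 5 of PS80 and PS20. By this measure PS20 and control were matched no less than PS80 and control, a hint from the data and not from the design. A term for replicates 1 and 2 against 3 to 5 gave 16 members that rose with PS20 (39.0%, against 27.2% of all genes). Replicates 1 and 2 alone gave 14 higher and 0 lower members for PS80 against control, 6 higher and 1 lower for PS20 against control, and 4 higher for PS80 against PS20, with 2025, 3116 and 1397 calls over all genes; fewer libraries were tested there. Replicates 3 to 5 alone gave 8 lower members for PS20 against control (19.5%, against 24.4% of all genes). With only libraries counted by featureCounts 2.0.0, PS80 is 1 library, assumed to vary like the other groups: 5 members rose against control (12.2%, against 11.4% of 13726 genes tested) and 3 were higher than with PS20 (7.32%, against 9.78%), with 2816 and 2351 calls over all genes. The members' medians were then 0.09 against control and 0.06 against PS20. In that comparison with PS20, UTP20 (-0.05, adjusted p = 0.848) and EBNA1BP2 (-0.02, adjusted p = 0.930) reversed; the cause was not tested. Without a filter on low counts, PPAN (adjusted p = 0.0537) and NOP10 (0.0587) were no longer called between PS80 and PS20, nor NPM1 (0.109) and POLR1A (0.0832) between PS20 and control. Depth limits NOP2 and PPAN most, at no more than 40 and 139 reads in a library.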
